A study of Homo sapiens with 8 samples.

Results

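The 32 genes described here are enzymes of glycolysis, their regulatory kinases, and genes of the hypoxia response. They were chosen by name, and all 32 were present among the 14668 gene symbols of the count table. Glycolysis breaks glucose down to pyruvate, and lactate dehydrogenase reduces pyruvate to lactate so that glycolysis can go on without oxygen use. Hypoxia-inducible factor is a transcription factor whose alpha subunit is encoded by HIF1A or by a related gene such as EPAS1. Prolyl hydroxylases (EGLN1, EGLN3) mark this subunit for destruction while oxygen is present. When the HIF1A subunit is stable, the factor raises transcription of most glycolytic enzymes and of genes such as CA9, VEGFA and ADM. Pancreatic tumours are known for low oxygen and high use of glucose.

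The cells were T3M4, an established human pancreatic cancer line, carrying an sgRNA against METTL13 (sgMETTL13) or a control sgRNA (sgControl). METTL13 is a methyltransferase of the elongation factor eEF1A, which other enzymes also methylate. All cells had been without serum for 18 h and then in 10% FBS for 2 h. Poly(A) RNA-seq measured mRNA, and ribosome profiling by puromycin-analog pulldown measured mRNA fragments held in ribosomes (footprints), with 2 libraries in each of the 4 groups. Whether an arm was 1 clone or a pool, whether replicates were separate cultures, and the oxygen level of the cultures are not given in the sources used here, and a p-value here reflects the spread of these libraries alone, which may be technical.

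Library totals were 8916807 to 9837253 footprint counts in sgMETTL13 and 6063885 to 8181707 in sgControl, and 39899139 to 48353722 mRNA counts in sgMETTL13 and 20860953 to 36436106 in sgControl. METTL13 footprints were 20.1 and 26.2 CPM in sgMETTL13, against 65.2 and 57.8 CPM in sgControl (CPM, TMM-scaled), a log2 fold change of -1.41 (SE 0.164), and its mRNA was 25.2 and 35.1 CPM in sgMETTL13, against 89.7 and 71.4 CPM in sgControl. All 5 epithelial markers were present, with mRNA sums of 2834 to 4130.4 CPM in sgMETTL13 and 3582 to 4110.3 CPM in sgControl. The fibroblast sum was 23.6 to 32.8 CPM in sgMETTL13 and 27.0 to 32.7 CPM in sgControl, nearly all of it COL1A1 and LUM, and the leukocyte sum was 20.6 to 32.3 CPM in sgMETTL13 and 25.4 to 49.3 CPM in sgControl, nearly all of it CD68. COL3A1, PDGFRB and PTPRC had 0 to 2 counts in every library.

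Footprints of HIF1A and ANKRD37 were higher in sgMETTL13, and those of TPI1 and CA9 were lower. These were 4 of the 30 members that passed the filter on low counts, 2 in each direction (edgeR quasi-likelihood test, adjusted p below 0.05 over all genes). Over all 10714 genes tested, 21.0% passed, 8.94% higher and 12.0% lower, a larger share than the 13.3% of the members. The members' median log2 fold change was 0.01, as was that of all genes tested. Of the members 15 lay above 0 and 15 below, and of all genes tested 5460 above and 5254 below. PGAM1 and HILPDA had too few footprints to be tested. DESeq2 called 3 of the members beside 13.7% of genes, limma voom 4 beside 20.4%, other size factors 4 beside 20.5%, and a fit with no filter on low counts 5 beside 17.3%. In 1 model of all 8 libraries, which shares its estimate of spread with the mRNA libraries, 0 members and 0% of genes passed. Each fit with 1 library left out leaves 1 library in an arm, which is then assumed to vary like the others. Without sgControl replicate 1 there were 6 calls beside 27.4% of genes, without sgControl replicate 2 there were 3 beside 7.49%, without sgMETTL13 replicate 1 there were 3 beside 14.7%, and without sgMETTL13 replicate 2 there were 4 beside 6.44%.

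**Figure D1:**
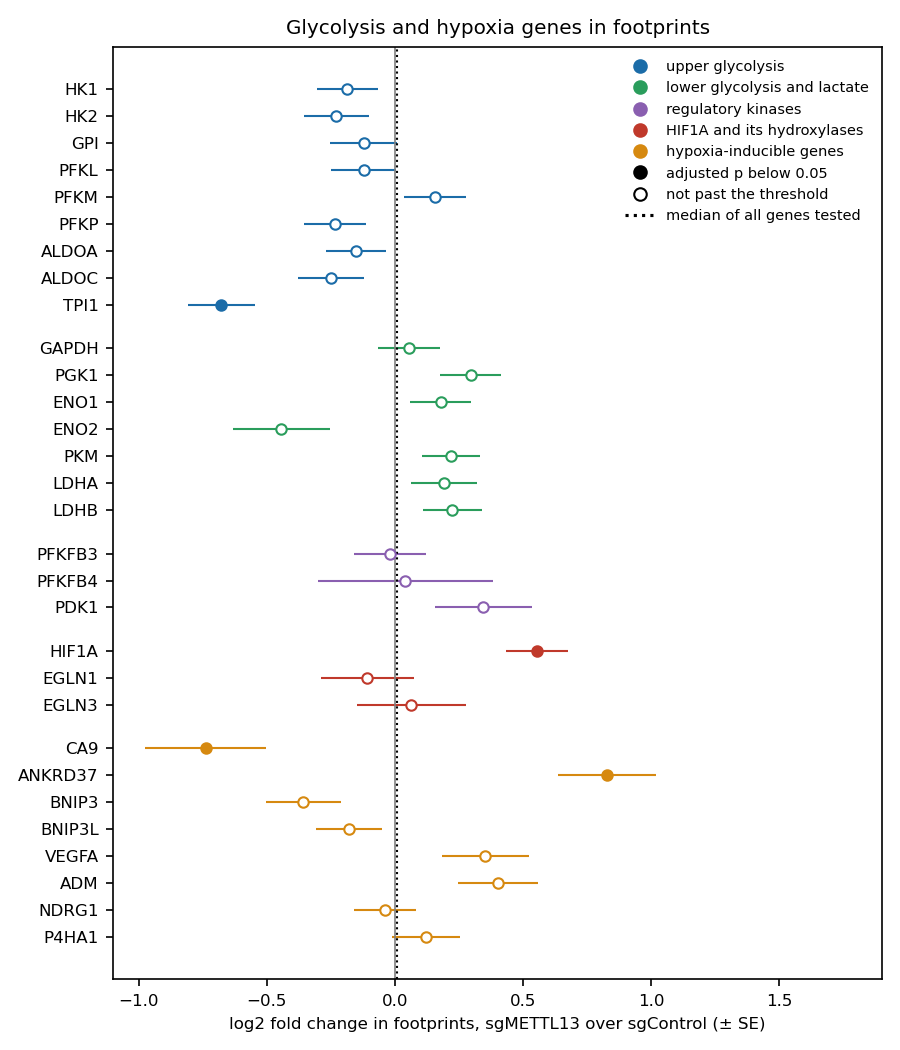
Log2 fold change in footprints, sgMETTL13 over sgControl, for the 30 members tested, in order of role; bars are ± 1 SE (n = 2 libraries per arm), filled points passed the threshold and the dotted line is the median of all genes tested. HIF1A and ANKRD37 stand to the right, TPI1 and CA9 to the left, and 8 of the 9 upper glycolytic genes lie below 0 while 6 of the 7 lower ones lie above it. Of all 10714 genes tested, 5254 lie below 0 and 5460 above. A difference between upper and lower genes was not tested.

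HIF1A, an oxygen-regulated subunit, lies on chromosome 14 at 61695513 to 61748258 (GRCh38). Its footprints were 846 and 833 CPM in sgMETTL13, against 613 and 531 CPM in sgControl. Both sgMETTL13 libraries lay above both sgControl libraries. The log2 fold change was 0.55 (SE 0.120; adjusted p = 0.00163 by edgeR), and the call held with any 1 footprint library left out (0.45 to 0.66). HIF1A mRNA was 1053 and 287 CPM in sgMETTL13, against 417 and 420.2 CPM in sgControl. The 2 sgMETTL13 mRNA libraries lay on either side of the controls and differed 3.66-fold from each other, while the footprint libraries with the same labels differed 1.01-fold. The mRNA difference of 0.68 (SE 0.498) did not pass (adjusted p = 1 by edgeR), and it was 1.33 without sgMETTL13 RNA replicate 2 and -0.48 without replicate 1. The antisense genes HIF1A-AS1, HIF1A-AS2 and HIF1A-AS3 overlap HIF1A in the RefSeq annotation, and the strand setting of the counting is not given in the sources used here.

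Of the prolyl hydroxylases, EGLN1, the main oxygen sensor of the pathway, had 20.9 and 18.2 footprint CPM in sgMETTL13 and 22.3 and 19.8 CPM in sgControl. EGLN3, which is itself induced by hypoxia-inducible factor, had 14.0 and 11.2 CPM in sgMETTL13 and 12.3 and 11.8 CPM in sgControl. The arms overlapped for both, and their log2 fold changes of -0.11 (SE 0.183) and 0.06 (SE 0.212) did not pass.

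Among the 9 hypoxia-inducible genes, 8 were tested in footprints, 1 rose and 1 fell, a share of 25% beside 21.0% of all genes tested. Their median log2 fold change was 0.04, with 4 above 0 and 4 below. The promoter sequences of the gene that rose, ANKRD37, and the gene that fell, CA9, are shown because both hold the core letters that hypoxia-inducible factor is known to bind, ACGTG or GCGTG on either strand, here in capitals. Each is the 250 bases before the annotated start, plus strand, from RefSeq (GRCh38.p14), at chr4:185396591-185396840 for ANKRD37 and chr9:35673678-35673927 for CA9.
ANKRD37: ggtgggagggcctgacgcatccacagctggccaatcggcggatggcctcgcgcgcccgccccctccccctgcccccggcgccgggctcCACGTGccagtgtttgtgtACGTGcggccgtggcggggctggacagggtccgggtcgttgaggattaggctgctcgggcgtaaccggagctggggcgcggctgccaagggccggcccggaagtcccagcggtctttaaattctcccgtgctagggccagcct
CA9: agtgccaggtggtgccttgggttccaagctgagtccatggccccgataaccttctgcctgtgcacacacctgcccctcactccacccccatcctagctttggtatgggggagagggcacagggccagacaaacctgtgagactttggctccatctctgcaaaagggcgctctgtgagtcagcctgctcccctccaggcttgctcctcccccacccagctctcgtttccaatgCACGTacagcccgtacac

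ANKRD37 holds 3 matches, of which the first 2 overlap in the palindrome CACGTG, and CA9 holds 1, at position -18 from the annotated start. Of the 28 members with a promoter in the table, 19 (67.9%) held at least 1 match, against 55.4% of the 11909 genes of the count table that have one and 43.1% of all 27305 genes in the RefSeq table. The windows follow the starts of the RefSeq promoter table, which for 7 members (GPI, PFKP, TPI1, GAPDH, PGAM1, PKM and PFKFB4) lie inside the annotated gene, and a match is only a run of letters. BNIP3 had the most matches of any member (6), LDHA and ALDOC had 5 each, and HK1, PFKM, PFKP, TPI1, PGAM1, PKM, LDHB, PDK1 and EGLN3 had none in this window.

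ANKRD37, an ankyrin repeat gene on chromosome 4 at 185396841 to 185400723, had 25.4 and 22.4 footprint CPM in sgMETTL13, against 14.8 and 11.97 CPM in sgControl. Its counts behind these values were 250 and 204 in sgMETTL13 and 122 and 70 in sgControl. Both sgMETTL13 libraries were higher, with log2 fold change 0.83 (SE 0.192; adjusted p = 0.00283 by edgeR), and the call held with any 1 library left out (0.69 to 1.00). Its mRNA was 9.99 and 9.15 CPM in sgMETTL13, against 7.48 and 3.76 CPM in sgControl. The mRNA arms did not overlap either, but the difference of 0.76 (SE 0.475) did not pass (adjusted p = 1 by edgeR). The 2 sgControl mRNA libraries differed 1.99-fold. LRP2BP and UFSP2 overlap ANKRD37 in the annotation.

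CA9, which encodes a cell-surface carbonic anhydrase that regulates pH, lies on chromosome 9 at 35673928 to 35681159. It had 6.20 and 9.66 footprint CPM in sgMETTL13, against 12.3 and 14.2 CPM in sgControl. These rest on few footprints, 61 and 88 counts in sgMETTL13 and 102 and 83 in sgControl. CA9 fell by 0.74 (log2, SE 0.236; adjusted p = 0.0253 by edgeR). The call was lost without sgControl replicate 2 or sgMETTL13 replicate 1, and the value with 1 library left out was between -1.09 and -0.46. It was also lost with DESeq2 (adjusted p = 0.0949). CA9 mRNA was 9.19 and 13.9 CPM in sgMETTL13, against 19.1 and 22.8 CPM in sgControl. The mRNA arms did not overlap, and the log2 difference of -0.86 (SE 0.450) did not pass (adjusted p = 1 by edgeR, unadjusted p = 0.0806).

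**Figure D2:**
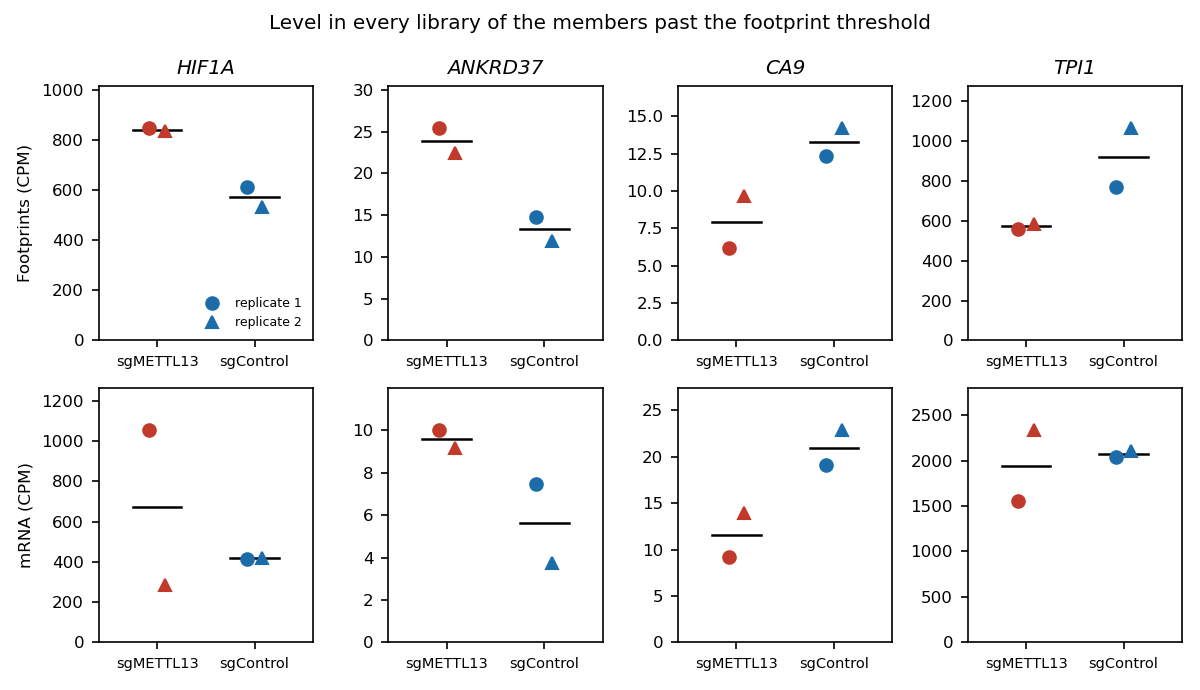
Footprints (top) and mRNA (bottom) in CPM in every library for the 4 members past the footprint threshold; circles are replicate 1, triangles replicate 2 and bars the mean of 2. ANKRD37 and CA9 differ in the same direction in both assays, HIF1A mRNA is split between the sgMETTL13 libraries (1053 and 287 CPM), and TPI1 mRNA overlaps between the arms.

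The other hypoxia-inducible genes did not pass. VEGFA, the vascular growth factor, had 29.5 and 37.8 footprint CPM in sgMETTL13, against 26.1 and 26.5 CPM in sgControl. ADM, which encodes the vasodilator peptide adrenomedullin, had 40.8 and 47.0 CPM in sgMETTL13, against 32.9 and 33.5 CPM in sgControl. Both were above the controls in both sgMETTL13 libraries, with log2 fold changes of 0.35 (SE 0.170) and 0.40 (SE 0.157) and edgeR adjusted p of 0.138 and 0.0642. BNIP3, a mitophagy receptor of the BCL2 family, had 48.7 and 48.9 CPM in sgMETTL13, against 60.97 and 64.1 CPM in sgControl. It read -0.36 (SE 0.145; adjusted p = 0.0766 by edgeR), and its paralog BNIP3L, which has the same function, read -0.18 (SE 0.129). NDRG1, a stress-responsive gene linked to differentiation, read -0.04, and P4HA1, a collagen prolyl hydroxylase subunit, read 0.12. HILPDA, a lipid droplet protein, had 4 and 1 footprints in sgMETTL13 and 5 and 5 in sgControl, although its mRNA counts were 875 and 980 in sgMETTL13 and 851 and 435 in sgControl.

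In upper glycolysis, which turns glucose into triose phosphates, 1 of 9 genes (11.1%) fell and none rose, beside 21.0% of all genes called. That gene was TPI1, triosephosphate isomerase, which interconverts the 2 triose phosphates, on chromosome 12 at 6867420 to 6870948. It had 561 and 585 footprint CPM in sgMETTL13, against 771 and 1063 CPM in sgControl. Both sgMETTL13 libraries were lower, and sgControl replicate 2 stood above replicate 1. TPI1 fell by 0.68 (log2, SE 0.132; adjusted p = 0.000558 by edgeR). The call held with any 1 library left out, but the value was -0.43 without sgControl replicate 2 and -0.89 without sgControl replicate 1. TPI1 mRNA was 1556 and 2331 CPM in sgMETTL13, against 2036 and 2109.7 CPM in sgControl, so the arms overlapped (log2 difference -0.09, SE 0.340). RefSeq lists 4 numbered pseudogenes of TPI1, and SPSB2 overlaps it.

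The other 8 upper genes did not pass, and 7 of them had values below 0. HK2, the hexokinase known for high levels in tumours, had 161 and 160.3 footprint CPM in sgMETTL13, against 187 and 189 CPM in sgControl, log2 fold change -0.23 (SE 0.127; adjusted p = 0.201 by edgeR). Its mRNA was 195 and 226 CPM in sgMETTL13, against 193 and 181 CPM in sgControl, on the other side of the controls. HK1, the widely expressed hexokinase, read -0.19 in footprints. The phosphofructokinases, which commit sugar to glycolysis, read -0.12 (PFKL), 0.16 (PFKM) and -0.24 (PFKP), so the muscle-type subunit had the other sign. The aldolases, which split the hexose, read -0.15 (ALDOA) and -0.25 (ALDOC), and the isomerase GPI read -0.12. The SE of these 7 was 0.116 to 0.130.

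In lower glycolysis and lactate formation, 7 of 8 genes were tested in footprints and none passed, and 6 of the 7 lay above 0. PGK1, phosphoglycerate kinase, the first ATP-forming step, came nearest among those above 0. It had 779 and 757 CPM in sgMETTL13, against 666 and 586 CPM in sgControl, log2 fold change 0.30 (SE 0.119; adjusted p = 0.0751 by edgeR). It passed without sgControl replicate 1 (0.39) and with no filter on low counts (0.31), and read 0.20 without sgControl replicate 2. PKM, pyruvate kinase, had 3401 and 3340.2 CPM in sgMETTL13, against 2832 and 2964 CPM in sgControl (0.22, SE 0.113; adjusted p = 0.172 by edgeR). ENO1, the widely expressed enolase, read 0.18 and GAPDH, which forms the high-energy phosphate of the pathway, read 0.05. ENO2, the neuronal enolase, was the member below 0, with 14.53 and 14.49 CPM in sgMETTL13, against 19.96 and 19.5 CPM in sgControl (-0.44, SE 0.189; adjusted p = 0.0900 by edgeR).

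LDHA, the lactate dehydrogenase subunit that favours lactate formation, had 677 and 900 footprint CPM in sgMETTL13, against 723 and 658 CPM in sgControl. The arms overlapped, and the log2 fold change of 0.19 (SE 0.129) turned to -0.03 without sgMETTL13 replicate 2. LDHB, the subunit that favours lactate use, had 3090.5 and 2822 footprint CPM in sgMETTL13, against 2459 and 2609 CPM in sgControl (0.22, SE 0.115; adjusted p = 0.169 by edgeR). The mRNA of both genes varied by replicate. LDHB mRNA was 1435 and 621 CPM in sgMETTL13, against 1242 and 626 CPM in sgControl, so replicate 1 was about as far above replicate 2 in either arm. LDHA mRNA was 2889 and 1532 CPM in sgMETTL13, against 2774 and 1942 CPM in sgControl. The footprints of LDHB did not show that split.

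The regulatory kinases did not pass. PFKFB3 and PFKFB4, which set the level of the main activator of phosphofructokinase, read -0.02 (SE 0.141) and 0.04 (SE 0.340) in footprints, and PFKFB4 had only 26 and 34 counts in sgMETTL13 and 31 and 13 in sgControl. PDK1, which switches off pyruvate dehydrogenase, had 27.2 and 23.7 CPM in sgMETTL13, against 23.6 and 16.1 CPM in sgControl (0.34, SE 0.189; adjusted p = 0.199 by edgeR). It was 0.67 and passed without sgControl replicate 1, and was 0.11 without sgControl replicate 2 and 0.24 without sgMETTL13 replicate 1.

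Over all members, the arms did not overlap in footprints for 22 of the 30 tested, 10 higher and 12 lower in sgMETTL13, beside 64.1% of all genes tested. The unadjusted p was below 0.05 for 9 of the 30 members and for 3704 of the 10714 genes. Within families of paralogs, both hexokinases, both aldolases, BNIP3 with BNIP3L and both lactate dehydrogenases had the same sign. ENO1 and ENO2, PFKM and the other phosphofructokinases, PFKFB3 and PFKFB4, and EGLN1 and EGLN3 had opposite signs. No difference between paralogs was tested. The values of PFKFB3, PFKFB4, EGLN1 and EGLN3 were each smaller than their SE. PFKFB4, EGLN3 and LDHA changed sign in at least 1 fit with 1 library left out.

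No member passed in mRNA, where 0% of 12468 genes did (edgeR; 100 genes and none of the 32 members at an unadjusted p below 0.05). DESeq2 and limma voom also called 0 members. METTL13 mRNA, at a log2 difference of -1.42 (SE 0.406, unadjusted p = 0.00457 by edgeR), did not pass either. The lack of a call here therefore does not show that the mRNA of a member was unchanged. The members' log2 differences were between -0.86 (CA9) and 0.76 (ANKRD37), with a median of -0.01 against 0.04 for all genes. The arms did not overlap for 4 of 32 members, HK2, ADM and ANKRD37 higher and CA9 lower in sgMETTL13, beside 12.0% of all genes (5.11% higher and 6.84% lower).

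The 2 sgMETTL13 mRNA libraries stood apart from each other in these genes. Among the members, 5 differed more than 2-fold between them, all higher in replicate 1. HIF1A differed 3.66-fold, P4HA1 3.09-fold, BNIP3L 2.49-fold, LDHB 2.31-fold and PDK1 2.04-fold. P4HA1 mRNA was 133 and 43.1 CPM in sgMETTL13, against 75.1 and 57.4 CPM in sgControl. BNIP3L mRNA was 161 and 64.8 CPM in sgMETTL13, against 92.2 and 82.2 CPM in sgControl. Of the 17 enzymes of glycolysis and lactate, 15 were instead higher in replicate 2, the exceptions being LDHA and LDHB. Of all 32 members 22 were higher in replicate 2, and the share of all genes in that direction was not counted. In the 3 other groups none of the members tested differed more than 2-fold between replicates (PGAM1 and HILPDA, at 5 or fewer footprints a library, were not tested there). Large differences were found over the whole table. There 20.0% of genes differed more than 2-fold between the sgMETTL13 mRNA libraries, against 0.995% in sgControl mRNA. Without sgMETTL13 RNA replicate 2, 5 members passed in mRNA, beside 19.9% of all genes. HIF1A (1.33), P4HA1 (1.00), BNIP3L (0.88) and ANKRD37 (0.81) were then higher and CA9 (-1.19) lower. Without sgMETTL13 RNA replicate 1 none did, beside 0.214% of all genes, and without sgControl RNA replicate 2 none did, beside 0.0315%.

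**Figure D3:**
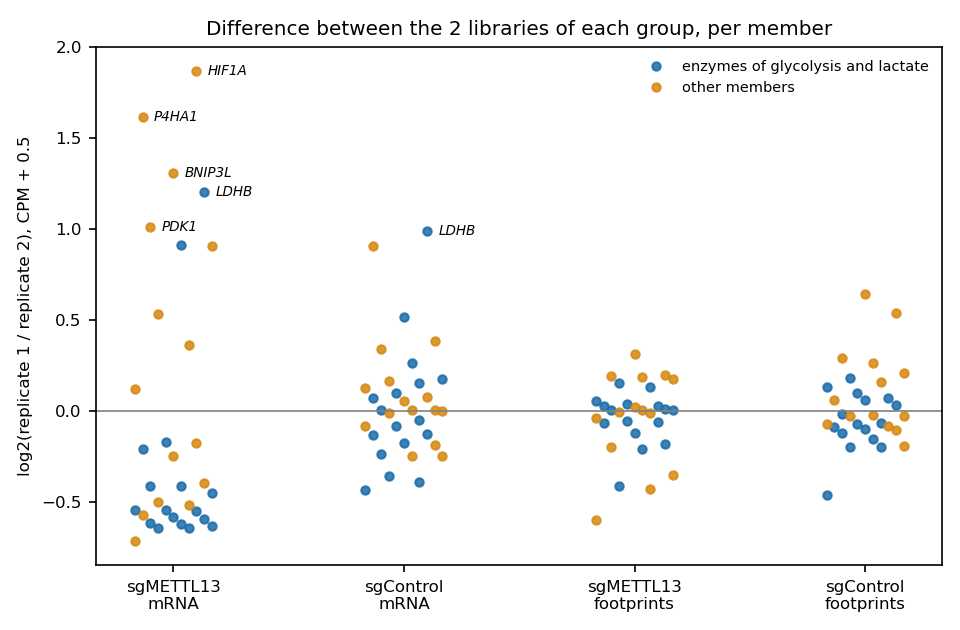
Log2 ratio of replicate 1 to replicate 2 for each member (CPM with 0.5 added) in sgMETTL13 mRNA, sgControl mRNA, sgMETTL13 footprints and sgControl footprints; blue points are enzymes of glycolysis and lactate, orange points the other members. The spread is widest in sgMETTL13 mRNA, where HIF1A, P4HA1, BNIP3L, LDHB and PDK1 lie above 1 and 15 of the 17 enzymes of glycolysis and lactate lie below 0.

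Footprints per mRNA, tested as the interaction of assay and arm over all 8 libraries, differed for none of the 30 members tested and for 0% of 10446 genes (edgeR adjusted p below 0.05; 347 genes and no member at an unadjusted p below 0.05). DESeq2 called 5 genes (0.0479%), none of them members. The members' values were between -0.58 and 0.36, with a median of 0.06 against -0.11 for all genes. The lowest value was that of TPI1, -0.58 (SE 0.368; adjusted p = 0.999 by edgeR), followed by BNIP3L at -0.53 (SE 0.512), and HK2 read -0.39 (SE 0.305). HIF1A read -0.10 with SE 0.644, an error larger than its footprint change. ANKRD37 read 0.09 (SE 0.491) and CA9 0.13 (SE 0.479). VEGFA read 0.06, LDHA 0.30, LDHB 0.10 and P4HA1 -0.26. With 1 mRNA library left out some members passed. HIF1A read 1.02 and passed without sgMETTL13 RNA replicate 1, beside 4.78% of all genes, and BNIP3L read -1.03 and passed without sgMETTL13 RNA replicate 2, beside 13.2% of all genes.

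The footprint counts of some members were far from their mRNA counts in every library. PGAM1, phosphoglycerate mutase, had 2 and 0 footprints in sgMETTL13 and 0 and 1 in sgControl, although its mRNA counts were 26802 and 30159 in sgMETTL13 and 26981 and 14345 in sgControl. A count of 0 allows up to 3 counts, or 0.329 CPM in sgMETTL13 replicate 2 and 0.363 CPM in sgControl replicate 1, for counting error only. PGAM4, another phosphoglycerate mutase gene, had the same footprint counts as PGAM1 in every library. Its mRNA counts were 126 and 173 in sgMETTL13 and 145 and 43 in sgControl. RefSeq lists 13 numbered pseudogenes of PGAM1, 65 of GAPDH and 46 of BNIP3, and for the other members between 0 and 6. GAPDH had 4915 and 4725 footprints on 289130 and 356356 mRNA counts in sgMETTL13, and 3778 and 3066 on 284990 and 215393 in sgControl. ALDOA was the reverse, with 12889 and 12463 footprints on 1144 and 1522 mRNA counts in sgMETTL13, and 11633 and 9167 on 1197 and 599 in sgControl. A protein-coding gene, LOC112694756, overlaps ALDOA in the annotation. The ratio of footprint to mRNA CPM was 43.1 in sgMETTL13 and 48.7 in sgControl for ALDOA, and 0.0679 in sgMETTL13 and 0.0544 in sgControl for GAPDH, while the middle 90% of all genes lay between 0.0906 and 4.09 in sgMETTL13 and between 0.0865 and 5.67 in sgControl. These ratios are not per length. The part of pseudogenes, of PGAM4 or of overlapping genes in these counts was not tested. The values of PGAM1, GAPDH, ALDOA and BNIP3 are uncertain for that reason.

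**Figure D4:**
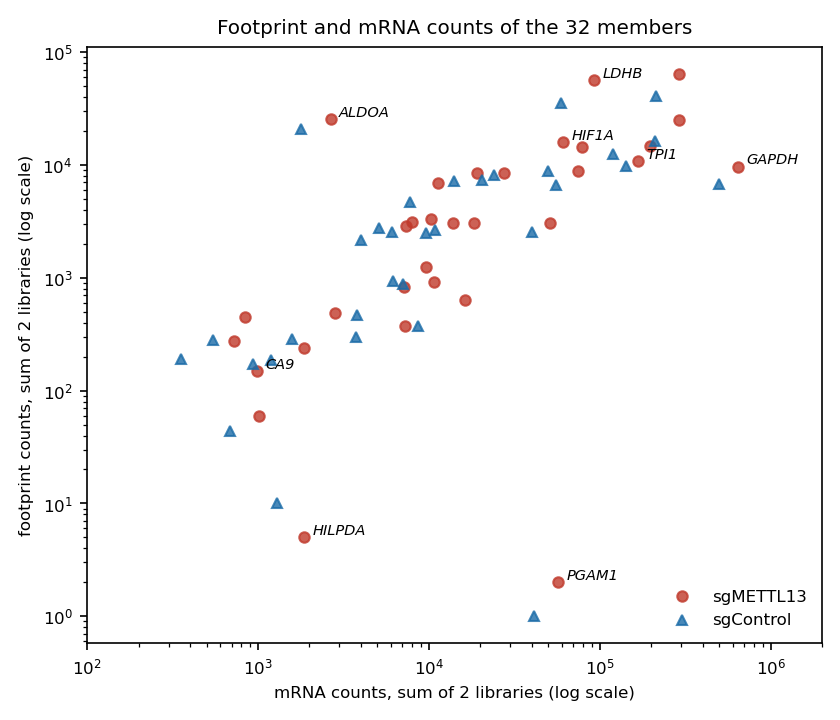
Footprint counts against mRNA counts of each of the 32 members, summed over the 2 libraries of sgMETTL13 (circles) and sgControl (triangles), both axes logarithmic. PGAM1 and HILPDA lie at the bottom with almost no footprints, ALDOA lies at the upper left with more footprints than mRNA counts, and both arms of a gene lie close together.

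Other genes of the same pathways were counted from lists in the same footprint fit. Of 80 listed genes 63 were tested, 8 rose and 6 fell, 22.2% of those tested beside 21.0% of all genes. Among subunits of hypoxia-inducible factor, its oxygen sensors and its degradation complex, 13 of 14 were tested. Of these, 3 rose and 3 fell (46.2%, beside 21.0% of all genes). Their median was 0.24, against 0.01 for all genes tested, and no list was tested as a set. HIF1AN, the asparaginyl hydroxylase that blocks the transactivation domain of HIF1A, fell by 0.64 (SE 0.151; adjusted p = 0.00312 by edgeR). ELOB, elongin B of the von Hippel-Lindau ubiquitin ligase, rose by 0.98 (SE 0.232) and RBX1, its ring subunit, by 0.44 (SE 0.137). VHL itself read -0.57 (SE 0.217, adjusted p = 0.0595 by edgeR), with both sgMETTL13 libraries lower. It did not pass, and neither did ELOC (0.24), CUL2 (0.30) or EPAS1, another alpha subunit (-0.12, SE 0.146). VHL, ELOC, CUL2 and EPAS1 were named after their values were seen. CITED2, which competes with HIF1A for its coactivators, rose by 0.65 (SE 0.182). The others that passed and fell were EGLN2 at -0.83 (SE 0.272), another prolyl hydroxylase, and ARNT2 at -1.14 (SE 0.416), a partner subunit. ARNT, another partner subunit, read 0.24 (SE 0.153; adjusted p = 0.283 by edgeR) and did not pass, with both sgMETTL13 libraries higher. EGLN2, ARNT2 and ARNT were named after their values were seen. ARNT2 rests on few footprints, 9 and 11 in sgMETTL13 and 17 and 16 in sgControl. Of the 6 that passed, HIF1AN alone held its call with any 1 library left out, and ELOB read 0.60 without sgMETTL13 replicate 2. EGLN2 read -0.27 without sgControl replicate 2 and -1.29 without sgControl replicate 1, and it did not pass with DESeq2 (adjusted p = 0.0955) or limma voom (adjusted p = 0.0574). ARNT2 did not pass with any 1 library left out or with no filter on low counts (adjusted p = 0.0647), and DESeq2 gave it no adjusted p.

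Of 25 other hypoxia-inducible genes 22 were tested, 4 rose and 1 fell (22.7%, beside 21.0% of all genes), with a median of 0.25. WSB1, a ubiquitin ligase adaptor, rose by 0.74 (SE 0.164; adjusted p = 0.00201 by edgeR) and held its call with any 1 library left out. VLDLR, a lipoprotein receptor, rose by 0.73 (SE 0.211) and FAM162A by 0.55 (SE 0.155), while ANKZF1 fell by 0.56 (SE 0.133), and these 3 lost their calls without sgMETTL13 replicate 2. Without sgControl replicate 2, VLDLR (0.57) and FAM162A (0.34) lost theirs too, and VLDLR did not pass with DESeq2 (adjusted p = 0.0571). KDM3A, a histone demethylase, rose by 0.46 (SE 0.139), was named after its value was seen, and lost its call without any of 3 footprint libraries, sgControl replicate 1 being the exception. In the 3 lists that follow, the shares called stand beside 21.0% of all genes. Of 12 genes of glucose and lactate transport and side branches 1 fell (8.33%). It was SLC16A3, the lactate exporter, at -0.41 (SE 0.129, adjusted p = 0.0215 by edgeR). SLC16A3 read -0.31 without sgControl replicate 2 and -0.52 without sgControl replicate 1. SLC16A1, of the same list, read 0.25 (SE 0.119, adjusted p = 0.137 by edgeR), with both sgMETTL13 libraries higher. It did not pass and was named after its value was seen. Of 4 tested among other glycolytic isozymes 1 fell (25%), ADPGK, an ADP-dependent glucokinase, at -0.70 (SE 0.184). Of 12 tested in pyruvate dehydrogenase and its regulators 1 rose (8.33%). It was PDP1, the phosphatase that switches the complex on, by 0.48 (SE 0.130). SLC16A3, ADPGK and PDP1 lost their calls without at least 1 library, all 3 of them without sgMETTL13 replicate 2.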

How the data were processed

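The authors deposited 1 table of raw gene counts for the 8 libraries. The submitters' processing notes name HISAT2 2.0.4, featureCounts, Bowtie 1.2.2, UMI-tools, cutadapt 1.18 and build hg38, without roles. The annotation, the strand setting and the treatment of multiply mapped or duplicate reads are not given in the sources used here. Libraries were grouped by their labels.

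Footprints and mRNA were each tested on their own 4 libraries by edgeR 4.0.16 in R 4.3.3 (quasi-likelihood F test, TMM factors, default filter on low counts). Footprints per mRNA was the interaction of assay and arm over the 8 libraries, on genes past both filters. Benjamini-Hochberg adjustment ran over every gene tested, with 0.05 as the threshold. Each SE was taken as the absolute log2 fold change divided by the root of its F statistic. Levels are TMM-scaled CPM. Alternatives were DESeq2 1.42.0, limma 3.58.1 voom, other size factors, no filter, a replicate block, 1 model of all 8 libraries, and each library left out in turn.

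The members and lists were chosen with earlier results of these data known. By rule, every member was named, with METTL13, and up to 4 genes of each other list by smallest footprint p among those past the threshold. Coordinates, pseudogene names and promoters are from RefSeq (GRCh38.p14). Promoters were matched for 28 members; those of BNIP3L, VEGFA, NDRG1 and HILPDA were not used here.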

Additional observations from a re-analysis of the deposited data

How the results depend on the processing

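The 4 footprint calls were 4 with the replicate block (16.1% of all genes) and 3 to 6 with 1 library left out, but 0 in the model of all 8 libraries, where no gene passed. HIF1A, ANKRD37 and TPI1 were called in each of these fits but that one. Calls of members with 1 library left out were 0 to 5 in mRNA and 0 to 1 for footprints per mRNA. Each such fit leaves 1 library in 1 of the groups, which is then assumed to vary like the others. The labels do not say that replicate numbers pair the arms, and with the replicate block SLC16A3, RBX1, ARNT2 and KDM3A lost their calls. Deviations of same-numbered libraries correlated at 0.435 in mRNA and -0.194 in footprints (across 10446 genes), and with crossed numbers, tried after seeing the data, 7 members passed in footprints beside 30.1% of all genes.

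No footprint value of a member changed sign outside the fits with 1 library left out, where 6 of 30 did. Those were EGLN3 (-0.12 to 0.22), GAPDH (-0.042 to 0.15), LDHA (-0.027 to 0.38), NDRG1 (-0.090 to 0.0076), P4HA1 (-0.0092 to 0.26) and PFKFB4 (-0.25 to 0.51). In mRNA 26 of 32 members changed sign in at least 1 fit. Of those with values given, HIF1A ranged from -0.48 to 1.33, P4HA1 from -0.56 to 1.00, BNIP3L from -0.36 to 0.88, LDHA from -0.55 to 0.29, LDHB from -0.52 to 0.71 and TPI1 from -0.42 to 0.24. For footprints per mRNA 24 of 30 did. HIF1A read 0.16 with limma voom and 0.18 with the replicate block, and ranged from -0.74 to 1.02 with 1 library left out. The ranges were -0.50 to 0.49 for ANKRD37, -1.03 to 0.17 for BNIP3L, -0.23 to 0.49 for CA9, -0.066 to 0.73 for LDHA, -0.46 to 0.73 for LDHB, -0.84 to 0.66 for P4HA1 and -0.26 to 0.37 for VEGFA. Depth limits CA9, PFKFB4, PGAM1 and HILPDA, which had few footprints. Among the other genes named it limits ARNT2, ELOC and EGLN2. ELOC had 21 and 26 footprints in sgMETTL13 and 22 and 8 in sgControl. EGLN2 had 72 and 54 in sgMETTL13 and 66 and 95 in sgControl. Counts were also low in sgControl for ELOB (88 and 47) and VLDLR (91 and 50).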
